A study of Sus scrofa with 50 samples.

Results

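Enzymes of nitrogen disposal and amino acid breakdown were followed in the tissues of the Korean minipig (Sus scrofa), a small pig breed, by RNA sequencing. They were chosen by name as 10 of the 35133 genes measured, of which 14532 are Swiss-Prot entries and the rest are transcripts with no protein match. The level of an enzyme was the sum over the assembled transcripts whose best protein match was its Swiss-Prot entry, and 30 of 57085 transcripts were summed in this way. The 5 enzymes of the urea cycle were CPSM (gene CPS1), OTC, ASSY (ASS1), ARLY (ASL) and ARGI1 (ARG1). The mitochondrial arginase ARGI2 (ARG2) and the amino acid breakdown enzymes ATTY (TAT), SDHL (SDS), T23O (TDO2) and AADAT completed the set.

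The study compared 2 kinds of Korean minipig, called ET-type and L-type in the labels, which do not say what the names stand for and give no age, sex, diet or treatment. Liver, kidney, heart, lung and spleen were taken from each of 5 animals a type, giving 50 libraries. The ET-type pigs carry the numbers S0235, S0242, S0276, S0309 and S0326. Numbers S0349, S0355, S0377, S0384 and S0385 belong to the L-type, and per-library values below follow this order. Values are TPM, a transcript abundance that adjusts for transcript length and library total, so that levels can be compared between genes; they hold no read depth, so the counting precision of a single value is unknown. Differences are on the log2(TPM + 1) scale, which understates the change of low genes, and a call means an adjusted p below 0.05 in limma's test over all genes, with a log2 difference of at least 1 between tissues. In bulk tissue, fewer cells of a type and less RNA per cell cannot be told apart.

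Ammonia set free when amino acids are broken down is toxic, and the liver turns it into urea. The cycle starts in the mitochondria of hepatocytes, where CPSM makes carbamoyl phosphate and OTC joins it to ornithine to give citrulline; in the cytosol ASSY and ARLY convert citrulline to arginine, which ARGI1 splits into urea and ornithine. The proximal tubule of the kidney uses ASSY and ARLY to make arginine for the body from circulating citrulline, and ARGI2 splits arginine in mitochondria outside the liver as well. ATTY, SDHL and T23O are the classic liver enzymes that open the breakdown of tyrosine, serine and threonine, and tryptophan, and AADAT is a mitochondrial aminotransferase that acts on kynurenine and on aminoadipate from lysine.

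Livers, hearts, lungs and all kidneys but 1 carried the markers of their tissue. The summed log2(TPM + 1) of 6 hepatocyte markers was 76.1 to 80.8 in the 10 livers and at most 19.3 in any kidney, and that of 6 proximal tubule markers was 35.0 to 44.5 in 9 kidneys. Heart muscle markers summed to 68.6 to 78.0 in the hearts and at most 28.0 elsewhere, and lung epithelium markers to 51.6 to 60.9 in the lungs and at most 8.75 elsewhere. The kidney library of ET-type S0235 stood apart, with a proximal tubule sum of 4.27 and a lymphoid sum of 45.8 against 5.39 to 11.9 in the other kidneys, and its values are given separately. In the liver of ET-type S0326, 26.4% of the TPM lay in mitochondrial transcripts, against 6.58% to 10.3% in the other livers, and its hepatocyte sum was the lowest, at 76.1. Of 6 markers of the other nephron segments, 5 stayed at 7.20 TPM or lower in every library outside kidney. The sixth, S12A3, the sodium chloride cotransporter of the distal tubule, split the animals: outside kidney it stood at 34.8 to 1749 TPM in all 4 tissues of 7 animals and at 0.366 TPM or lower in those of S0309, S0355 and S0377. Outside kidney 99.98% of its TPM came from 1 transcript of 2292 bases whose match to the protein spans 27 residues.

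In Sscrofa11.1, RefSeq places CPS1 on chromosome 15 (113210038 to 113339086), OTC on chromosome X (34322398 to 34391711), ASS1 on chromosome 1 (270531434 to 270586364), ASL on chromosome 3 (16637481 to 16646869) and ARG1 on chromosome 1 (32006035 to 32028983). ARG2 lies on chromosome 7 (91343987 to 91385911), TAT on chromosome 6 (14571311 to 14583203), SDS on chromosome 14 (38503922 to 38513908), TDO2 on chromosome 8 (44708722 to 44725954) and AADAT on chromosome 14 (19768816 to 19792254). These are gene loci by symbol; the assembled transcripts themselves were matched to proteins and not to positions.

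The 5 urea cycle enzymes were all abundant in liver, and 3 of them were at 1.002 TPM or lower in the 9 kidneys. CPSM stood at 308, 514, 342, 1122 and 168 TPM in the ET-type livers and at 857, 144, 1108, 529.8 and 1613 TPM in the L-type livers. In the 9 kidneys its highest value was 0.365 TPM, and in heart, lung and spleen it reached at most 0.510 TPM. The highest liver held 11.2 times the lowest, yet every liver lay far above every other library.

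OTC, which uses the product of CPSM, had the lowest level of the 5 in 10 of 10 livers. Its values were 112, 110.4, 37.2, 223 and 24.6 TPM in ET-type and 87.2, 50.7, 146, 73.3 and 119 TPM in L-type livers. The highest value outside liver was 0.168 TPM, in a kidney.

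ASSY, the step that brings in the second nitrogen, had the highest level of the 5 in 10 of 10 livers. Its liver values were 2143, 2024, 2684, 5325 and 1012 TPM in ET-type and 3787, 2062, 6862, 2565 and 10365 TPM in L-type animals. Kidney values were 2014, 740.5, 523 and 523 TPM in ET-type (S0242 to S0326) and 706, 214.5, 1651, 579 and 899.5 TPM in L-type animals. Liver exceeded the same animal's kidney in 9 of 9 animals, by little in S0242 and by far in S0385.

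ARLY, which releases arginine, varied least among the 5 in liver, with the highest at 2.78 times the lowest library. Its liver values were 270.1, 296, 262.5, 378 and 513 TPM in ET-type and 388, 247, 568.5, 339 and 686 TPM in L-type animals. In kidney it stood at 182, 155, 167 and 143 TPM in ET-type and at 168, 101.1, 249.7, 134 and 240.1 TPM in L-type animals. The kidney value lay below the same animal's liver in 9 of 9 animals.

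ARGI1, the cytosolic arginase that closes the cycle, was measured at 378, 785, 308, 386 and 386 TPM in ET-type livers and at 1104, 476.5, 1346, 926 and 2559 TPM in L-type livers. In the 9 kidneys it ranged from 0.173 to 1.002 TPM. Kidney thus carried the ASSY and ARLY steps at a high level and the other 3 at or near 0.

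**Figure D1:**
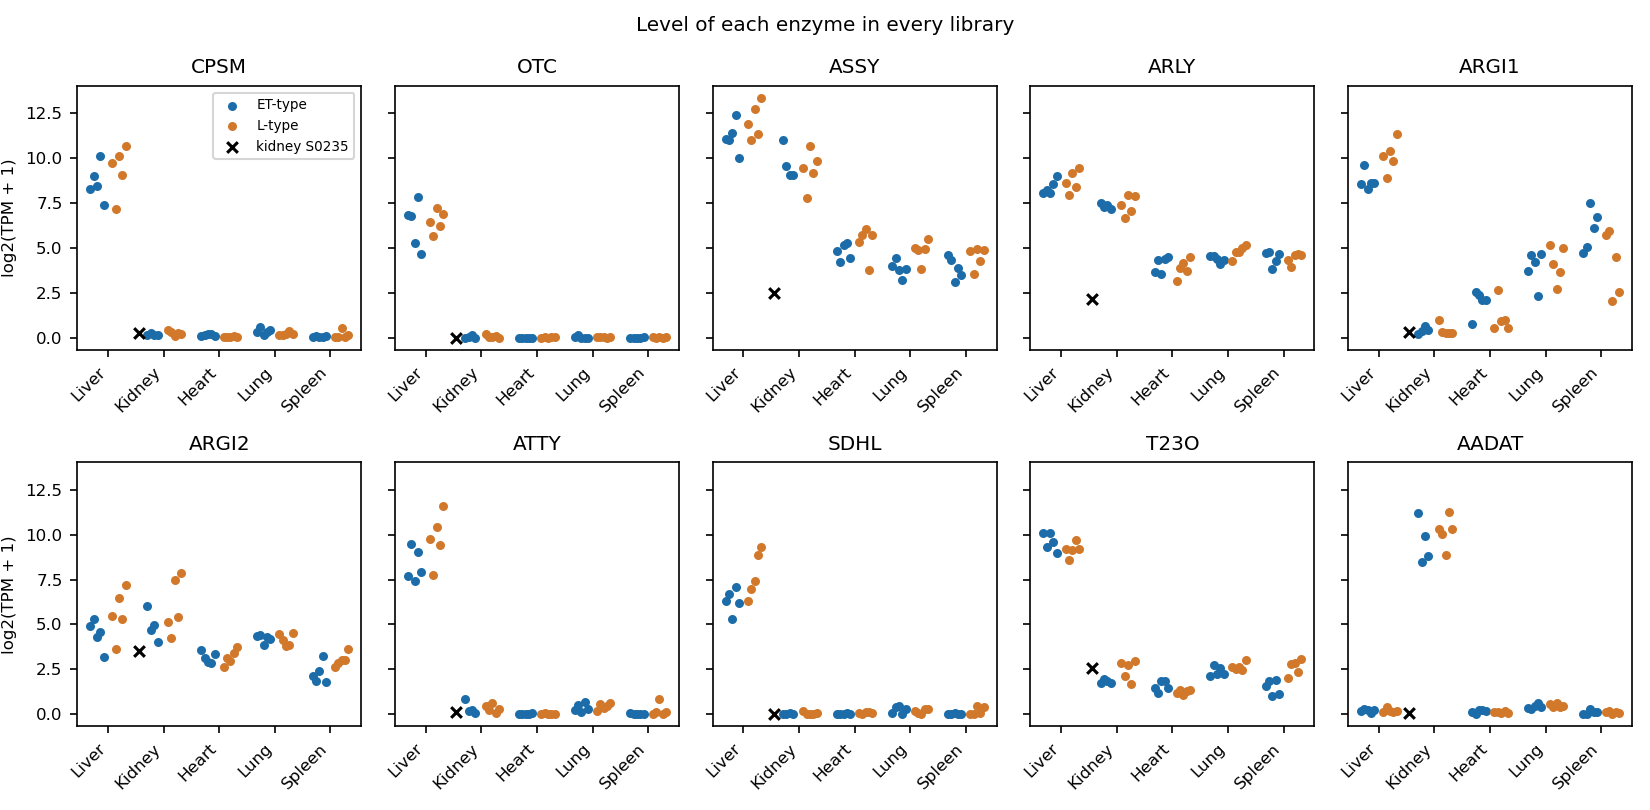
Level of each of the 10 enzymes, as log2(TPM + 1), in every library by tissue; each point is 1 library, blue for ET-type and orange for L-type, and the cross is the kidney library of S0235. CPSM, OTC, ATTY and SDHL were high in liver alone, AADAT in kidney alone, and ASSY and ARLY in both.

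The arginine-splitting enzymes divided between the organs. ARGI2 stood at 29.4, 39.2, 18.8, 23.2 and 8.26 TPM in ET-type livers and at 43.7, 11.2, 87.1, 37.8 and 145 TPM in L-type livers. Its kidney values were 63.9, 24.9, 30.0 and 15.0 TPM in ET-type and 33.8, 18.2, 176, 42.3 and 229 TPM in L-type animals. The kidney value exceeded the same animal's liver in 8 of 9 animals, L-type S0349 being the exception.

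ARGI1 made up 95.3% ± 1.66 (SD, n = 10) of the summed arginase TPM in liver and 1.16% ± 1.005 (SD, n = 9) in kidney. The share was 21.7% ± 15.5 (SD, n = 10) in heart, 47.1% ± 14.6 (SD, n = 10) in lung and 78.2% ± 25.98 (SD, n = 10) in spleen. It exceeded 50% in all 10 livers, 8 of 10 spleens, 5 of 10 lungs and none of the hearts or the 9 kidneys. In lung and spleen 59.4% and 55.6% of ARGI2 came from a transcript with a match of only 60 residues, on which these shares depend. This share of ARGI1 was computed after the values had been seen and was not tested.

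**Figure D2:**
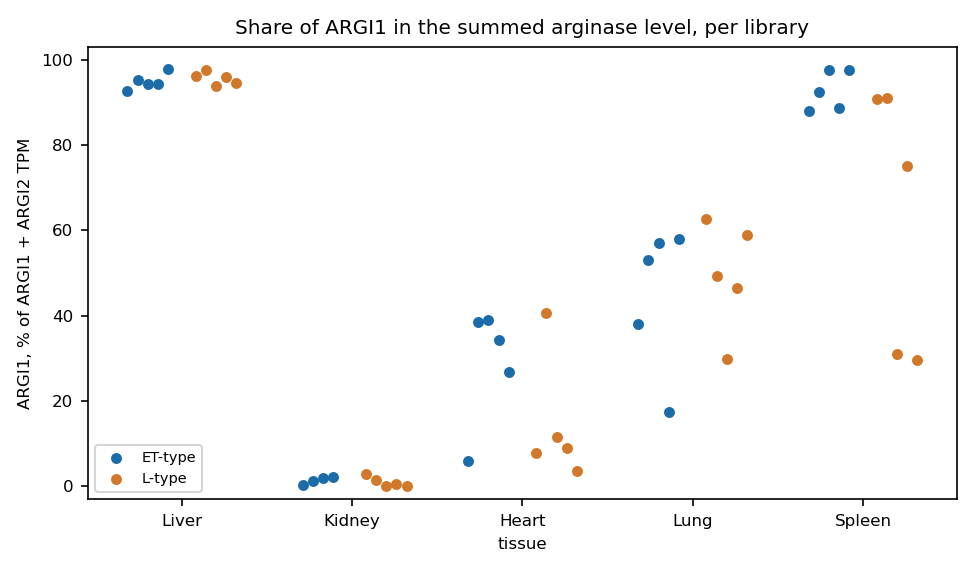
Share of ARGI1 in the summed TPM of ARGI1 and ARGI2, in percent, per library and tissue; each point is 1 library, blue for ET-type and orange for L-type, without the kidney of S0235. Livers lie between 92.8% and 97.9%, kidneys between 0.0916% and 2.88%, and the L-type spleens spread from 29.6% to 90.9%.

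Among the enzymes that open amino acid breakdown, 3 were liver enzymes and 1 was a kidney enzyme. ATTY stood at 208, 719, 167, 519 and 238 TPM in ET-type livers and at 845, 214, 1367, 684 and 3126 TPM in L-type livers. SDHL stood at 77.0, 104.5, 38.25, 134 and 72.2 TPM in ET-type and at 77.8, 125, 169, 464 and 635 TPM in L-type livers. Outside liver ATTY reached 0.835 TPM and SDHL 0.397 TPM at most, both in the spleen of L-type S0377.

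T23O varied little between livers, at 1071, 621, 1091, 774 and 507.5 TPM in ET-type and 581, 382, 574, 819 and 582 TPM in L-type animals. It was above ATTY in 6 of 10 livers. In kidney T23O was low but measurable, at 2.39, 2.87, 2.58 and 2.41 TPM in ET-type and 6.155, 3.43, 5.71, 2.19 and 6.91 TPM in L-type animals.

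AADAT was the only one of the 10 that was high in kidney and near 0 in liver. Its kidney values were 2349, 360.2, 949.7 and 445.0 TPM in ET-type and 1264, 1060, 472 and 2423 TPM, with 1288 TPM in S0385, in L-type animals. No liver exceeded 0.347 TPM and no heart, lung or spleen exceeded 0.527 TPM. In kidney this put it in the same range as ASSY.

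In the comparison of liver with kidney over both types (10 livers, 9 kidneys), 9 of the 10 enzymes were called, 8 higher in liver and 1 lower. Over all genes 44.1% were called, 9.74% higher in liver and 34.4% lower. CPSM, OTC, ARGI1, ATTY and SDHL averaged below 1 TPM in kidney and entered the test through liver alone. AADAT entered through kidney alone. The filter thus fixed the direction of these enzymes, and the counts are not a result about them. The log2 difference was 9.04 ± 0.28 (SE) for ARGI1, 8.79 ± 0.36 for CPSM, 8.75 ± 0.40 for ATTY, 7.20 ± 0.23 for T23O, 7.04 ± 0.35 for SDHL and 6.31 ± 0.31 for OTC, with limma adjusted p of 2.35e-13 or lower for these 5 and 3.24e-13 for SDHL. The median over the 10 was 6.68, against -0.60 over all genes. It includes the enzymes whose direction the filter fixed and, like the counts, is not a result about the set. The same limit holds for the adjusted p of enzymes that entered through 1 tissue alone.

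ASSY and ARLY were also higher in liver, by smaller amounts. The log2 difference was 2.13 ± 0.42 for ASSY (limma adjusted p = 0.000139) and 1.18 ± 0.21 for ARLY (limma adjusted p = 5.66e-05). AADAT was lower in liver, at -9.69 ± 0.30 with a limma adjusted p of 1.55e-16. ARGI2 was not called, at -0.43 ± 0.48 with a limma adjusted p of 0.44; with the animal as block the difference was -0.48 ± 0.17 and the adjusted p 0.0196, short of the required size. After scaling each library to the median ratio of its genes, ARGI2 turned to 0.18 ± 0.46, and the share of calls over all genes that were higher in liver went from 22.1% to 41.1%.

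Of the 107 other genes fixed in lists around these pathways, 100 were measured and 97 tested. Of these, 51 were called higher in liver and 15 lower, with a median of 1.25. Over all genes 9.74% were called higher and 34.4% lower. Of the 100 measured, 88 averaged at least 1 TPM in kidney and 96 in liver. A gene below that mean in 1 organ could enter only through the other. Its direction was thus fixed by the filter, and the counts are not a result about such genes. Among partners of the urea cycle, 5 of 8 tested were higher and 2 lower. NAGS, which makes the activator of CPSM, stood at 145 ± 69.4 TPM (SD, n = 10) in liver and 3.17 ± 3.12 TPM (SD, n = 9) in kidney, a log2 difference of 5.32 ± 0.37. CAH5A, the mitochondrial carbonic anhydrase that supplies bicarbonate, differed by 5.30 ± 0.15.

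The 2 glutaminases, which release ammonia from glutamine, went opposite ways. The liver form GLSL was at 69.4 ± 36.6 TPM in liver and 1.98 ± 0.99 TPM in kidney, and the kidney form GLSK at 2.44 ± 0.83 and 32.1 ± 8.93 TPM (SD, n = 10 and 9). All 4 genes of histidine breakdown were higher in liver, with HUTU, the urocanate hydratase, at 7.82 ± 0.18. Only 1 of the 4 averaged at least 1 TPM in kidney, and the others entered through liver alone, which fixed their direction. Of 7 methionine and cysteine genes, 5 were higher, led by METK1, the liver methionine adenosyltransferase, at 9.01 ± 0.25.

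Of 5 tyrosine genes, 4 were higher in liver, PH4H, the phenylalanine hydroxylase, by 3.39 ± 0.42. Serine, glycine and threonine genes were higher for 7 and lower for 2 of 13, with TDH, a threonine dehydrogenase, at 46.0 ± 19.3 TPM in liver and 0.0047 ± 0.0096 TPM in kidney. TDH entered the test through liver alone, which fixed its direction. For lysine 3 of 4 genes were higher, and for branched-chain amino acids 9 of 15 were higher and 2 lower, BCAT2, the mitochondrial branched-chain aminotransferase, being at -2.40 ± 0.27. Of the other tryptophan and kynurenine genes, 3 of 9 were higher and 1, ACMSD, was lower at -3.52 ± 0.64.

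More genes were lower than higher in liver in 2 lists, proline (1 higher and 2 lower of 7) and alanine, aspartate and asparagine (1 higher and 2 lower of 5). P5CS and P5CR2, which make proline, were at -2.91 ± 0.21 and -2.56 ± 0.21. ALAT2, a mitochondrial alanine aminotransferase, was at -4.05 ± 0.84. Of 7 arginine and ornithine genes 3 were higher and 2 lower, with GAMT, which makes creatine, at 5.41 ± 0.25 and DDAH2 at -3.32 ± 0.25. Among 8 regulators 4 were higher and none lower, GLR, the glucagon receptor, at 3.67 ± 0.33 and CEBPA at 3.15 ± 0.20. Of the 7 pericentral genes, which mark hepatocytes around the central vein, 3 were higher and 3 lower. All of these named differences had limma adjusted p below 0.05, and the lists were chosen with earlier results of these data known.

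The kidney of ET-type S0235 held 0.0712 TPM of AADAT, 0.00604% of the mean of the other 9 kidneys. ASSY stood at 4.68 TPM there, 0.536% of the others' mean, and ARLY at 3.50 TPM, 2.05%. ARGI2 kept 10.6 TPM, 15.1% of the mean of 70.4, and T23O was 4.90 TPM, within the range of the others. The low AADAT, ASSY and ARLY stood beside the low proximal tubule markers given above, and their part was not tested.

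In heart, lung and spleen ASSY and ARLY stayed at a low level and the liver-restricted enzymes were near 0. ASSY averaged 35.8 ± 16.7 TPM in heart, 21.6 ± 11.2 TPM in lung and 18.9 ± 8.16 TPM in spleen (SD, n = 10 each). ARLY averaged 15.6 ± 4.83, 23.8 ± 6.11 and 21.3 ± 4.57 TPM (SD, n = 10 each). CPSM, OTC, ATTY, SDHL and AADAT were below 1 TPM in every library of these 3 tissues.

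ARGI1 was the exception outside liver. Heart values were 0.682, 4.84, 4.15, 3.25 and 3.37 TPM in ET-type and 0.439, 5.34, 0.899, 0.969 and 0.455 TPM in L-type animals. Lung values ranged from 3.94 to 35.0 TPM with a median of 16.9 TPM, and spleen values from 3.18 to 177 TPM with a median of 41.9 TPM. Spleen was thus the tissue with the highest ARGI1 after liver, and the gap between its lowest and highest library was wide.

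ARGI2 averaged 8.24 ± 2.24 TPM in heart, 17.5 ± 3.34 TPM in lung and 5.85 ± 2.79 TPM in spleen (SD, n = 10 each). T23O averaged 1.69 ± 0.53, 4.81 ± 1.09 and 3.68 ± 2.25 TPM (SD, n = 10 each). Lung was the highest of the 3 for both, and 59.4% of its ARGI2 came from a transcript with a match of only 60 residues.

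Against heart, 9 of 9 tested enzymes were higher in liver, where 20.8% of all genes were called higher. Against spleen 9 of 9 were higher, with 14.6% of all genes, and against lung 8 of 9, with 8.56%. CPSM, OTC, ATTY and SDHL, below 1 TPM in these tissues, entered the tests through liver alone. Their direction was thus fixed by the filter, and the counts are not a result about them. ARGI2 was the enzyme not called against lung, at 0.85 ± 0.35; it was called, at 1.96 ± 0.35, after median-ratio scaling. That scaling moved the share of calls that were higher in liver from 14.7% to 42.9% against lung and from 34.0% to 49.2% against spleen.

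Kidney was higher than heart, lung and spleen for ASSY, ARLY, ARGI2 and AADAT, 4 of 6 tested in each comparison, and lower for ARGI1. Of all genes 46.1%, 34.3% and 35.0% were called in these comparisons in either direction. The ARGI1 difference was -1.10 ± 0.28 against heart, -3.595 ± 0.31 against lung and -4.605 ± 0.49 against spleen. T23O was not called in these 3 comparisons; against heart it was, at 1.05, with a pseudocount of 0.1. With median-ratio scaling the share of calls that were higher in kidney went from 82.7% to 60.8% against heart and from 29.2% to 51.6% against lung.

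Among heart, lung and spleen fewer calls were made. Heart was below lung for ARGI1, ARGI2 and T23O, 3 of 5, where 52.8% of all genes were called lower. For ARGI2, the transcript matched over residues 13 to 354 averaged 6.27 TPM in heart and 7.12 TPM in lung. A second transcript, with a match of only 60 residues, averaged 1.97 and 10.4 TPM, so most of the ARGI2 difference lay in it. Heart was below spleen for ARGI1 alone, at -3.53 ± 0.48, with 28.1% of all genes called lower, and lung was above spleen for ARGI2 alone, at 1.52 ± 0.20, with 30.7% called higher. Median-ratio scaling moved the median of all genes for heart against lung from -1.07 to -0.12 and the share of calls higher in the first tissue from 10% to 41.5% there, from 26.3% to 48.3% for heart against spleen and from 80.03% to 57.7% for lung against spleen. Under it the ARGI2 difference between heart and lung changed sign, the T23O and ARGI2 calls named here were lost, and calls were gained for ASSY between heart and lung or spleen, ARGI2 between heart and spleen and ARGI1 between lung and spleen. ARGI1 between heart and spleen was called in both.

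Calls between neighbours in the order of mean level were as follows. ASSY, ARLY and ARGI2 differed between liver or kidney and each of heart, lung and spleen, except ARGI2 between liver and lung. For ASSY, heart, lung and spleen were not called apart from each other, and the same held for ARLY. For heart this was by size alone. ASSY was higher there than in lung (0.71 ± 0.26, limma adjusted p = 0.016) and spleen (0.86 ± 0.26, limma adjusted p = 0.00635). ARLY was lower there than in lung (-0.60 ± 0.18, limma adjusted p = 0.00373) and spleen (-0.45 ± 0.18, limma adjusted p = 0.0273). For ARGI1 the order was liver, spleen, lung, heart and kidney. Lung and spleen were the only neighbours not called apart, at -1.07 ± 0.55 with a limma adjusted p of 0.0857. The direction of the ARGI1 call between heart and kidney was fixed by the filter. For T23O, kidney was not called apart from heart, lung or spleen. Against heart this was by size alone, at 0.78 ± 0.20 with a limma adjusted p of 0.00149.

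Between the types, none of 9 tested enzymes was called in liver, where 0.00933% of all genes were called. At an unadjusted p below 0.05 there were 3 of 9, ARGI1, SDHL and ATTY, against 6.58% of all genes. The difference ET-type minus L-type was below 0 for 8 of 9, with a median of -0.90 against -0.06 over all genes, where 57.4% were below 0. AADAT, under the required mean of 1 TPM, was not tested in liver.

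The per-library liver values given above overlapped between the types for all 9, and 1.08% of all genes had groups that did not overlap. ARGI1 averaged 448 ± 191 TPM in ET-type and 1282 ± 782 TPM in L-type livers (SD, n = 5 each), a log2 difference of -1.39 ± 0.41 with a limma adjusted p of 0.52. Among ET-type livers only S0242, at 785 TPM, exceeded the lowest L-type liver. ATTY averaged 370.3 ± 239 and 1247 ± 1128 TPM, a difference of -1.48 ± 0.64 with a limma adjusted p of 0.74.

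SDHL averaged 85.2 ± 36.0 and 294 ± 243 TPM (SD, n = 5 each), a difference of -1.46 ± 0.55 with a limma adjusted p of 0.69. ARGI2 differed by -1.13 ± 0.60 and ASSY by -0.90 ± 0.51. T23O was the only one of the 9 above 0, at 0.45 ± 0.27 with a 95% interval of -0.15 to 1.05. The intervals of CPSM, OTC and ARLY ran from -2.11 to 0.71, from -1.41 to 0.96 and from -0.99 to 0.33, and differences within these bounds are not excluded.

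One animal carried many of the high values. L-type S0385 had the highest liver level of CPSM, ASSY, ARLY, ARGI1, ARGI2, ATTY and SDHL, 7 of the 9. Without it the differences were -1.09 ± 0.36 for ARGI1, -1.02 ± 0.58 for ATTY and -1.07 ± 0.50 for SDHL, with limma adjusted p of 0.83 or higher. The lowest values lay with ET-type S0276 (3 of 9), ET-type S0326 (3 of 9) and L-type S0355 (3 of 9). The hepatocyte marker sum of S0385 was 79.9, within the range of the other livers, and the part of cell content was not tested.

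Fitted over all libraries but the kidney of S0235 at once, 49 in all, with the animal as block, so that the spread was pooled over 5 tissues, SDHL (adjusted p = 0.00262) and ATTY (adjusted p = 0.0113) were called lower in ET-type livers by limma, 2 of 9, with 2.28% of all genes called. In kidney, heart and lung this fit called none of the 5 tested, with 1.4%, 5.94% and 3.87% of all genes. Both enzymes are near 0 outside liver, so the other tissues added next to no spread to the pooled estimate. Their differences, -1.46 and -1.48, were the same as within liver alone.

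**Figure D3:**
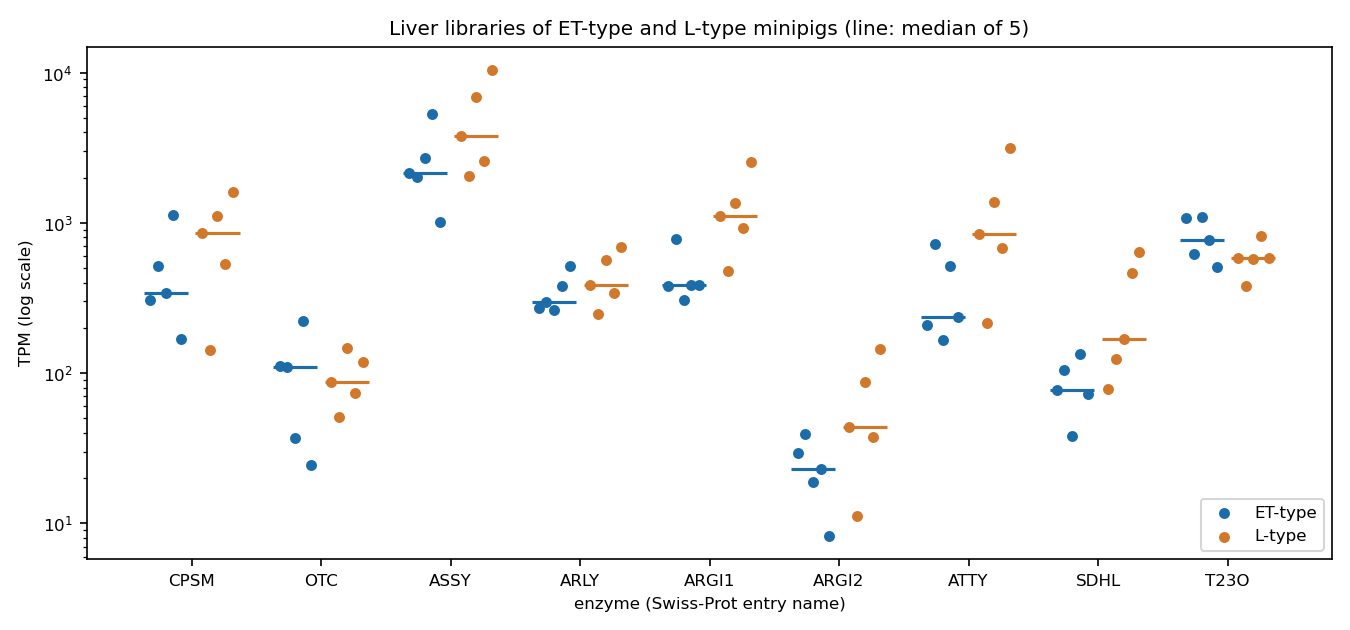
Liver TPM on a log scale for 9 enzymes; each point is 1 library, blue for ET-type and orange for L-type, and lines are medians of 5. The types overlap for every enzyme, and the highest point is L-type S0385 for 7 of the 9, reaching 10365 TPM for ASSY.

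Of the other pathway genes in liver none of 96 tested was called, 79 of 96 below 0 and a median of -0.24. The largest separations among those named by rule were CP2E1, a pericentral cytochrome P450, at 24.9 ± 42.0 TPM in ET-type and 1223 ± 1083 TPM in L-type livers (SD, n = 5 each; limma adjusted p = 0.40), and ALAT2 at 0.79 ± 0.93 and 134 ± 193 TPM (adjusted p = 0.65). ACMSD, the branch point of tryptophan breakdown, was at 1.67 ± 1.95 and 40.8 ± 45.6 TPM (adjusted p = 0.61). ORNT1, the ornithine carrier of the urea cycle, was at 95.2 ± 40.4 and 162 ± 53.7 TPM (adjusted p = 0.70). HUTH, which starts histidine breakdown, was at 28.5 ± 12.01 and 71.0 ± 49.7 TPM (adjusted p = 0.74).

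In kidney none of 5 tested enzymes was called between the types, with 0.00376% of all genes called, and none of the 5 had an unadjusted p below 0.05, against 8.7% of all genes. ARGI2 averaged 33.5 ± 21.2 TPM in 4 ET-type and 99.9 ± 96.0 TPM in 5 L-type kidneys (SD), a difference of -1.11 ± 0.71 with a limma adjusted p of 0.63. The 2 highest kidneys, S0377 and S0385, were both L-type, and the other 3 L-type kidneys lay within the ET-type range. AADAT differed by -0.57 ± 0.58, T23O by -0.65 ± 0.31, ASSY by 0.26 ± 0.57 and ARLY by -0.06 ± 0.30, all with overlapping groups, where 2.92% of all genes had groups that did not overlap.

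Whether the type difference itself differed between liver and kidney was tested on each animal's liver minus kidney value. None of the 10 enzymes was called, and 0.0% of 26430 genes were; the lowest limma adjusted p of an enzyme was 0.749, shared by ARGI1, SDHL and T23O. These 3 of 10 had an unadjusted p below 0.05, against 6.62% of all genes. ARGI1 and SDHL averaged 0.36 and 0.03 TPM in kidney, and their values of -1.34 and -1.40 nearly repeat the differences within liver. Kidney could add next to nothing for them, so the test cannot tell the organs apart there. The same limit holds for CPSM, OTC and ATTY, and for AADAT, which was near 0 in liver. Without the animal as block 0 were called as well.

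In heart none of 5 tested enzymes was called, with 0.0238% of all genes called; none had an unadjusted p below 0.05, against 22.2% of all genes. Without ET-type S0242 the count over all genes rose from 5 of 21014 to 2162 of 21128, with none of the 5 enzymes among them. ARGI1 was at 0.85 ± 0.44, with 4 of 5 ET-type hearts above 4 of 5 L-type hearts. In lung none of 5 was called, with 0.213% of all genes. ASSY, at 15.25, 20.95, 12.6, 8.49 and 13.5 TPM in ET-type and 31.4, 28.1, 13.05, 29.2 and 43.7 TPM in L-type lungs, was lower in ET-type by an amount that did not pass, -0.95 ± 0.31 with a limma adjusted p of 0.17. All but 1 of the L-type lungs, S0377, lay above all ET-type lungs. The summed log2(TPM + 1) of 5 macrophage markers moved with these values, at 16.1 to 25.5 in ET-type and 24.5 to 35.4 in L-type lungs; it was lowest in S0309 and highest in S0385, as ASSY was, and S0377 was the lowest L-type lung in both. Its part was not tested. ARLY was at -0.43 ± 0.19 (limma adjusted p = 0.28), and these 2 of 5 had an unadjusted p below 0.05, against 16.2% of all genes.

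**Figure D4:**
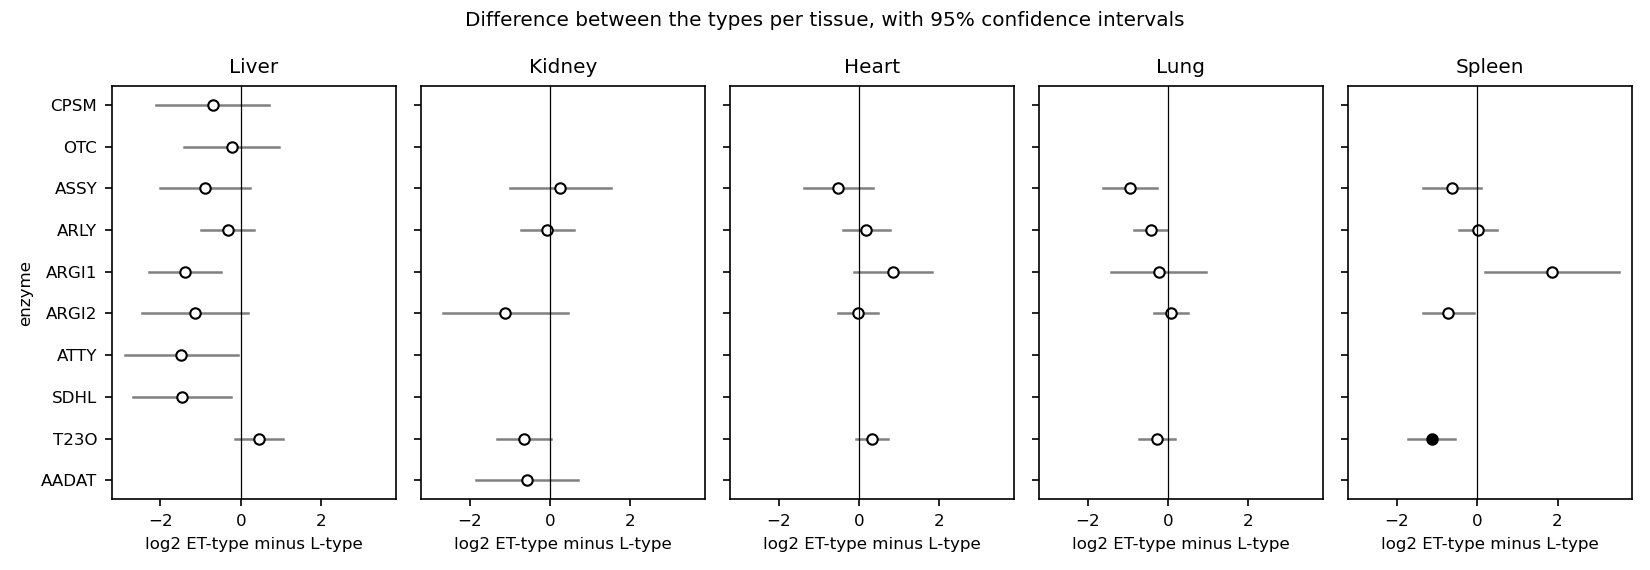
Difference between the types, ET-type minus L-type, on the log2(TPM + 1) scale per enzyme and tissue, with 95% confidence intervals from limma; filled points passed the test, and enzymes with no point had a mean below 1 TPM in that tissue. The 1 filled point is T23O in spleen, at -1.13.

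In spleen 1 of 5 tested enzymes was called, T23O, where 22.2% of all genes were called and 15.8% had groups that did not overlap. T23O stood at 1.98, 2.67, 1.04, 2.79 and 1.18 TPM in ET-type and at 3.13, 5.90, 6.28, 4.22 and 7.58 TPM in L-type spleens. Every ET-type spleen lay below every L-type spleen, a log2 difference of -1.13 ± 0.27 with a limma adjusted p of 0.0266. The median of all genes in this comparison was -0.47.

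After median-ratio scaling the T23O difference was -0.68 ± 0.20 with an adjusted p of 0.0725, the median of all genes was 0.03, and the share of calls that were higher in ET-type went from 3.13% to 67.3%. The call was also lost without ET-type S0276 (adjusted p = 0.05775) or S0326 (0.06005), and without L-type S0377 (0.0696), S0384 (0.05035) or S0385 (0.0710). In the fit over all libraries at once, with the spread pooled over 5 tissues and the animal as block, T23O had a limma adjusted p of 0.000842. The count over all genes, 5339 called, itself fell to 254, 112, 41, 730 and 50 without these 5 animals in the same order.

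ARGI1 in spleen went the other way. It stood at 25.3, 32.2, 177, 67.8 and 106 TPM in ET-type and at 51.5, 61.6, 3.18, 21.2 and 4.77 TPM in L-type spleens, with overlapping groups. The difference of 1.87 ± 0.77 did not pass (limma adjusted p = 0.0839). It was called in the fit over all libraries, with the spread pooled over tissues and the animal as block (limma adjusted p = 0.0164). That fit called 29.5% of all genes, and 2 of the enzymes, T23O and ARGI1, were among them. ARGI1 was also called without L-type S0355, at 2.32 ± 0.74 (adjusted p = 0.0434). ARGI2 was at -0.71 ± 0.29 (adjusted p = 0.0843) and was called without ET-type S0309, at -0.95 ± 0.25 (adjusted p = 0.02995). ASSY was at -0.62 ± 0.33 and ARLY at 0.03 ± 0.22. Unadjusted p below 0.05 was seen for 3 of 5, against 44.2% of all genes.

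Cell markers moved with these spleen values. The summed log2(TPM + 1) of 3 red cell genes was 41.0 to 45.8 in ET-type spleens and 28.3 to 42.6 in L-type spleens, lowest in S0377 and S0385, which also had the lowest ARGI1. The sum of 6 lymphoid markers was 15.7 to 27.5 in ET-type and 21.9 to 39.3 in L-type spleens, with the highest values in S0377 and S0385, and that of 5 macrophage markers was 28.4 to 34.8 and 34.0 to 39.0. None of these 3 lists had a gene below 0.1 TPM in all spleens of a type. Hepatocyte markers summed to 18.4 in the spleen of S0377, against at most 6.56 in the others, and that spleen held the highest spleen values of CPSM, ATTY and SDHL. Their part in the spleen values was not tested.

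Among the 10 livers some of the urea cycle enzymes varied together. Of 10 pairs of the 5 enzymes, CPSM with ASSY reached a Pearson r of 0.90 (permutation p = 0.00042, adjusted over 10 pairs 0.0042) and a Spearman rho of 0.87 (permutation p = 0.00195, adjusted 0.0195). CPSM with OTC reached r = 0.77 (permutation p = 0.00951, adjusted 0.0476) and rho = 0.76 (permutation p = 0.0156, adjusted 0.0728). Without the 2 livers farthest from the median of CPSM, r was 0.92 with ASSY and 0.61 with OTC. After removal of the type means r was 0.89 and 0.78.

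The other 8 pairs did not pass, and without the 2 livers farthest from the median of the first enzyme their r moved both ways. ASSY with ARGI1 had r = 0.69 (permutation p = 0.0278, adjusted 0.0557), which was 0.19 without them, and r fell in this way to 0.16 for ARLY with ARGI1, -0.16 for ASSY with ARLY and -0.00928 for OTC with ARGI1. CPSM with ARLY had r = 0.59 (permutation p = 0.0769, adjusted 0.110) and a Spearman rho of 0.68 (permutation p = 0.0351, adjusted 0.0728), and its r rose to 0.91 without them. CPSM with ARGI1 had r = 0.70 (permutation p = 0.0265, adjusted 0.0557), which was 0.71 without them. OTC with ARLY, at 0.20 (permutation p = 0.570, adjusted 0.570), was the lowest. All libraries share the TPM scale, and their depth is unknown.

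ARGI2 stood out in another way, in that its level in an animal's kidney followed that in its liver. Over the 9 animals with both tissues, Pearson r of log2(TPM + 1) was 0.95 (permutation p = 2e-05, adjusted over 4 enzymes 8e-05) and Spearman rho 0.95 (permutation p = 0.00035, adjusted 0.0014). Without the 2 animals farthest from the median liver level r was 0.91, with type means removed 0.945, and after median-ratio scaling 0.93. L-type S0385 and S0377 were highest in both organs, ET-type S0326 and L-type S0355 lowest in both. The share of kidney TPM in mitochondrial transcripts moved with these values, at 12.3%, 21.0% and 14.0% in S0385, S0377 and S0242, the 3 kidneys highest in ARGI2, and at 45.6% and 44.2% in S0326 and S0355. With mitochondrial transcripts left out and the rest rescaled, r of ARGI2 was 0.94.

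Over 10738 entries measured in both tissues the median r was 0.14, and ARGI2 lay at percentile 99.96. ARLY had r = 0.73 (permutation p = 0.0253, adjusted 0.0506), at percentile 96.5, and r fell to 0.43 without the 2 farthest animals. ASSY had r = 0.32 (permutation p = 0.407, adjusted 0.421) and T23O r = -0.31 (permutation p = 0.421, adjusted 0.421). In heart, lung and spleen S0377 held 6.93, 12.9 and 7.06 TPM of ARGI2 and S0385 held 12.35, 22 and 11.3 TPM, S0385 being the highest of its tissue in all 3 and S0377 the lowest in lung. This comparison was added after the values had been seen.

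**Figure D5:**
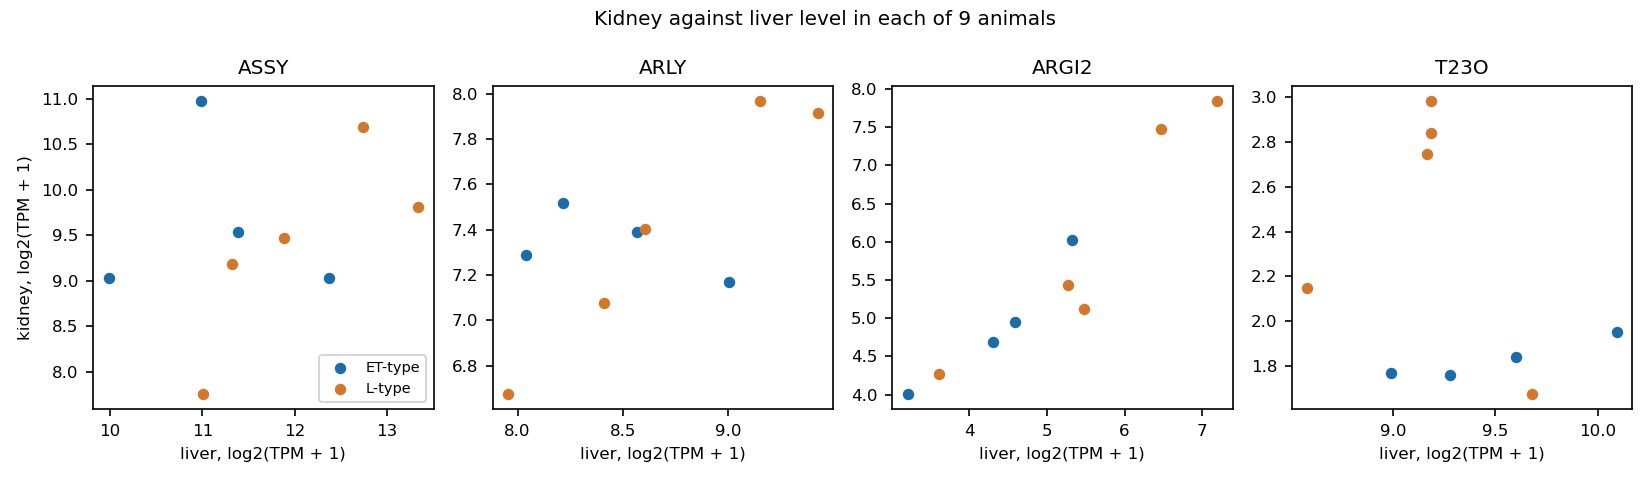
Kidney against liver level, as log2(TPM + 1), of 4 enzymes in each of 9 animals, blue for ET-type and orange for L-type. The points of ARGI2 lie along a line (r = 0.95), and those of ASSY (0.32) and T23O (-0.31) scatter.

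The sums rest on assembled transcripts of unequal quality. CPSM drew 71.0% of its liver TPM from 1 transcript whose match covers residues 1 to 1500 of the human protein at 95.7% identity, and ASSY drew 77.4% from 1 with a match over residues 1 to 412. OTC rested on a single transcript of 7473 bases, of which 14.2% aligned, over residues 1 to 354. SDHL rested on a single transcript with a match of 57 residues at 75.4% identity, so its identity is the least certain of the 10.

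AADAT was the sum of 3 transcripts from the L-type kidney assembly, with identities of 54.7% to 81.0% to the bovine protein, the first giving 83.8% of its kidney TPM. ARGI2 in liver and kidney came mostly from 1 transcript (94.5% and 92.8%), matched over residues 13 to 354. In lung and spleen a second transcript, with a match of 60 residues in 2532 bases, gave 59.4% and 55.6%. The ARGI2 values of lung and spleen therefore count mostly another transcript than those of liver and kidney. The ARGI1 shares and the ARGI2 comparisons that use lung or spleen depend on it.

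For T23O, 41.9% of the liver TPM came from a transcript of 7762 bases, of which 15.3% aligned, over residues 1 to 395. The others, with matches of only 29, 41, 48 and 64 residues, gave 24.3%, 15.7%, 9.28% and 8.81%. Outside liver the 7762-base transcript gave 94.5% in kidney, 94.4% in heart, 93.2% in lung and 82.8% in spleen, so that the low T23O values there, and the call in spleen, rest on it. The T23O differences between liver and other tissues thus compare partly different transcripts. The 7762-base transcript alone averaged 293.5 TPM in liver and 3.64 TPM in kidney. The share of the leading transcript in liver was compared between the types for 7 enzymes, and none passed an exact permutation test (lowest adjusted p = 0.611). For ATTY this share was 46.9% ± 16.8 in ET-type and 66.4% ± 19.1 in L-type livers (SD, n = 5 each; exact permutation p = 0.143).

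Genes most like an enzyme were named as the 3 entries with the highest Pearson r of log2(TPM + 1), over 49 libraries and within the tissue where the enzyme was highest. Over all libraries CPSM was nearest to ATTY (0.995), CO8A (0.995) and OTC (0.994), and AADAT to the transporters S6A18 (0.995) and S7A13 (0.993). With tissue means removed these values were 0.82, 0.81 and 0.76 for CPSM and 0.52 and 0.70 for AADAT. ARGI2 had no close companion, with MMSA first at 0.85, or 0.64 with tissue means removed.

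Within the 10 livers, among 11087 entries, CPSM was nearest to AASS (0.976), the first enzyme of lysine breakdown, RXRA (0.973) and E41LB (0.967). ARGI1 was nearest to DISP3 (0.979), ACMSD (0.955) and FMO5 (0.952), and SDHL to HEM1 (0.950). Within the 9 kidneys, among 12534 entries, AADAT was nearest to GLNA (0.957), the glutamine synthetase, and ARGI2 to IFT46 (0.988), ZBT25 (0.983) and RBM48 (0.974). These are descriptions over few libraries, picked as the highest of many.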

How the data were processed

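Poly(A)-selected, strand-specific libraries (TruSeq Stranded mRNA) were made from TRIzol RNA, per the labels' protocols. The submitters' processing notes name Trimmomatic 0.36, Salmon 1.10.0 and the build Sscrofa11.1; the assembler and the match settings are not given in the sources used here. The authors deposited TPM per assembled transcript, each library summing to 1000000, with a table of best Swiss-Prot matches (63.9% of transcripts had an entry). The read depth is unknown, and counts were not used.

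TPM were summed per Swiss-Prot entry name, and transcripts with no entry were kept singly. Genes averaging 1 TPM or more over the compared libraries entered limma 3.58.1 (R 4.3.3; trend, empirical Bayes) on log2(TPM + 1), with Benjamini-Hochberg adjustment over all genes. Between tissues, a gene near 0 in 1 of them could enter through the other alone, which fixed its direction. Types were compared within a tissue; tissues were compared with type as a covariate. The kidney of S0235 was left out. Each animal gave all 5 tissues, so the labels pair libraries by animal: deviations from group means had a mean r of 0.26 over 96 same-animal pairs, 92 above 0.1, and -0.10 between other animals of a type. The fit with the animal as block was an alternative. Others were a pseudocount of 0.1, no filter or a mean of 5 TPM, median-ratio scaling, mitochondrial transcripts left out, matches of at least 80% identity, robust empirical Bayes and leaving out each animal. Scripts were tested on simulated data. Correlations used 100000 permutations.

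All 10 members are named. Other genes named in the text were taken, per list and comparison, from those that passed. These were at most the 4 with the smallest p (for liver against kidney, the largest difference), or, where none passed, 2 genes ranked by p. Only some of the genes chosen in this way are named, so the names are not a complete account of the lists. The members, lists and tests were chosen with earlier results of these data known. Of the listed genes, 7 were not found under their entry names. Gene loci come from RefSeq by symbol. Sequences were not used here.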

Additional observations from a re-analysis of the deposited data

Results flagged for a closer look

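In 58 groups of 4 or 5 libraries of an enzyme in a tissue and type, 3 held a library far from the others. The distance was its gap to the nearest library over the whole range. By chance about 1 in 20 checked is marked, and 3 of 58 does not stand above that rate. ASSY in the kidney of ET-type S0242 was 2014 TPM, against 523 to 740.5 TPM in the other 3 (0.854 of the range). ARGI1 in the liver of ET-type S0242 was 784.6 TPM, against 308 to 386 TPM in the other 4 (0.836 of the range). ARGI1 in the heart of L-type S0355 was 5.34 TPM, against 0.439 to 0.969 TPM in the other 4 (0.892 of the range).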

How the results depend on the processing

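Of the counts of enzymes called, those for liver, kidney, heart and lung between the types were 0 under every alternative but 1. That was 2 in liver in the fit over all libraries, with pooled spread and the animal as replicate block. In spleen the count of 1 became 0 with a mean of 5 TPM and with median-ratio scaling. It became 2 in that fit over all libraries, and 0 to 2 when animals were left out. For heart against spleen it became 3 with median-ratio scaling, and 4 pairs of urea cycle enzymes passed with type means removed against 2. The block changed no other call of an enzyme than those given. Differences that changed sign were mostly not called. A called one was ARGI2 in heart against lung, at -1.02, and ASSY in the type by tissue comparison, not called, was at -1.14. With median-ratio scaling the reversed values were ARLY between types in kidney (0.24), ARGI2 in liver against kidney (0.18) and heart against lung (0.13), T23O in kidney against lung (0.0754) and lung against spleen (-0.0441), ARLY in heart against lung (0.58), heart against spleen (0.10) and lung against spleen (-0.48), and ASSY in lung against spleen (-0.46). Without mitochondrial transcripts ARLY in kidney was 0.0243 and ARGI2 in heart 0.12, and at 80% identity ARLY in spleen was -0.00737. With the kidney of S0235, ASSY in kidney was -1.16, and the type by tissue differences of ASSY, ARLY and ARGI2 were 0.26, 0.77 and 0.26. When single animals were left out, type differences ranged from -0.61 to 0.17 for OTC in liver, -0.18 to 0.59 for ASSY and -0.25 to 0.0762 for ARLY in kidney, -0.16 to 0.12 for ARGI2 in heart, -0.59 to 0.16 for ARGI1 and -0.00621 to 0.18 for ARGI2 in lung, and -0.0902 to 0.18 for ARLY in spleen; type by tissue differences ranged from -0.87 to 0.13 for OTC and -0.28 to 0.0625 for ARGI2. Over the alternatives, all genes called between types numbered 1 to 488 in liver, 0 to 371 in kidney, 0 to 2162 in heart, 4 to 1128 in lung and 41 to 7086 in spleen, and other pathway genes 0 to 8, 0 to 1, 0 to 18, 0 to 2 and 0 to 15. The cause of these changes was not tested. Unknown read depth limits all values near 0.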

Other observations

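In spleen, 1 of 67 tested genes of the other pathway lists was higher and 11 were lower in ET-type, against 0.696% higher and 21.5% lower over all genes. The higher one was DDAH1, which breaks down methylated arginine, at 6.79 ± 1.85 and 3.46 ± 1.51 TPM (SD, n = 5 each; limma adjusted p = 0.0479). Among the lower ones was GATM, which makes the creatine precursor from arginine, at 10.2 ± 3.17 and 26.3 ± 11.4 TPM (adjusted p = 0.0271). GLNA, the glutamine synthetase, was at 251 ± 87.4 and 495 ± 173 TPM (adjusted p = 0.0372). KFA, which forms kynurenine from the product of T23O, and KYNU and KAT3, which act on kynurenine, were at -1.10 ± 0.36, -0.71 ± 0.23 and -0.56 ± 0.15. The lower genes not named here were 1 of 6 proline, 2 of 5 methionine and cysteine and 3 of 15 branched-chain genes tested. After median-ratio scaling 2 of the 67 were higher, DHE3 at 0.64 ± 0.13 and GCSH at 0.85 ± 0.19, and 0 lower, 19 lay below 0 against 59, and none of the 6 genes named before was called, KAT3 changing sign to 0.0266. None of the list genes was called without ET-type S0276 or S0326 or L-type S0377, S0384 or S0385. The red cell and lymphoid marker sums given for spleen moved with type in the same libraries, and their part was not tested.

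In heart none of 65 tested genes of these lists was called. All 14 tested genes of branched-chain amino acid breakdown were below 0, against 41.9% of all genes, with a median of -0.56 against 0.09 over all genes. With mitochondrial transcripts left out, 13 of 15 tested were below 0, with a median of -0.35 against 0.23. Without ET-type S0242, 3 of the 65 were called higher and 15 lower. Among the lower ones were 5 branched-chain genes, 3HIDH, ACDSB, HIBCH, IVD and ODBA, at -0.75 to -1.33. Over all genes 2162 of 21128 were called in that fit, 64.1% of them higher. AATM, the mitochondrial aspartate aminotransferase, was at 226 ± 120 TPM in ET-type and 547 ± 110 TPM in L-type hearts (SD, n = 5 each, limma adjusted p = 0.088). It was called without S0242 (limma adjusted p = 0.025). It was also called in the fit over all libraries, with the spread pooled over tissues and the animal as block (limma adjusted p = 0.00642). The summed log2(TPM + 1) of 6 heart muscle markers was 72.1, 68.6 and 68.9 in the ET-type hearts S0276, S0309 and S0326, against 76.4 and 76.5 in the other ET-type and 75.4 to 78.0 in L-type hearts. Those 3 hearts had 43.5% to 47.1% of their TPM in mitochondrial transcripts, against 29.1% to 39.6% in the other 7. Red cell sums were 12.95 to 20.9 in ET-type and 5.86 to 13.3 in L-type hearts, and matrix sums 23.8 to 29.0 and 17.1 to 23.9. Their part in these values was not tested. In lung none of 82 and in kidney none of 88 was called.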
